A study of Rattus norvegicus with 6 samples.

Results

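The core circadian clock loop was described in RNA-seq profiles of rat aorta through 8 genes, the activators Arntl, Clock and Npas2 and the repressors Per1, Per2, Per3, Cry1 and Cry2. They were taken by symbol from the deposited table of 24005 gene symbols, and all 8 were present, Arntl under that older name of Bmal1. All 8 had a mean of at least 1 FPKM over the 6 libraries and entered the test with 11742 genes. FPKM counts the reads of a gene relative to its length and to the size of the library.

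Every rat had chronic kidney disease from a 5/6 nephrectomy done in 2 steps, and every rat was fed 1.2% phosphorus to hasten vascular calcification. The exosome group (3 libraries) received the vesicle preparation ANCR/E7-EXO at 10 mg/kg by tail vein with 5 days between doses, and the saline group (3 libraries) received the same volume of saline for 13 weeks. Strain, age, sex and the hour of day of aorta collection are not stated in the labels, and no aorta free of kidney disease was analysed here. The study's title concerns calcification of vessels, and the comparison here asks which clock genes of the diseased aorta differed with exosomes. The aortic label was matched by smooth muscle markers, since Myh11 stood at 1946, 1808 and 1463 FPKM in the exosome libraries and at 2109, 1694 and 1783 FPKM in the saline libraries. Library totals, read from the steps between FPKM values, ran from 28063355 to 44561082 reads or read pairs. The summed level of 12 heat shock genes listed separated exosome 1 and 3 from the rest. It was 5712, 1103 and 10420 FPKM in exosome 1, 2 and 3, against 2240, 1426 and 2198 FPKM in saline 1, 2 and 3. Hspb1 gave a large part of it, with 2803, 363.5 and 5444 FPKM in exosome 1, 2 and 3. Dnajb1 and Hspe1 did not separate these libraries. Dnajb1 was highest in saline 3 (102.5 FPKM), and Hspe1 was at 68.5 FPKM in saline 1 and 63.05 FPKM in exosome 1. Cryab was nearly equal in exosome 1 and saline 1 (520.4 and 519.3 FPKM).

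The clock is a feedback loop of transcription found in nearly all cells, the smooth muscle, endothelium and fibroblasts of arteries included. BMAL1, encoded by Arntl, pairs with CLOCK or with its relative NPAS2 and activates genes through E-box sequences. Among these genes are the Per and Cry genes, whose proteins return to the nucleus and repress the activators. In a second loop the REV-ERB receptors (Nr1d1, Nr1d2) repress and the ROR receptors activate Arntl and Npas2 through a shared response element. Levels of these transcripts swing over the day, with Arntl and Npas2 near opposite phase to Per2, so that a level depends on the hour of sampling.

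Promoters of 7 of the 8 genes were found in the RefSeq table of build GRCr8, from 250 bases before to 50 bases after the annotated start. The promoter of Per2, a repressor gene whose groups did not overlap, and that of Arntl, the shared partner of the activators, are printed to show the elements through which the 2 loops act. Capitals mark matches of the motifs searched. In Per2 (chr9:99496944-99497243, minus strand) these are a D-box, TTATGTAA, from base -192 to -185, and the E-box variant CACGTT from base -62 to -57. In Arntl (chr1:176766078-176766377, plus strand) it is the core of the REV-ERB and ROR element, TAGGTCA, from base -16 to -10.
Per2 promoter: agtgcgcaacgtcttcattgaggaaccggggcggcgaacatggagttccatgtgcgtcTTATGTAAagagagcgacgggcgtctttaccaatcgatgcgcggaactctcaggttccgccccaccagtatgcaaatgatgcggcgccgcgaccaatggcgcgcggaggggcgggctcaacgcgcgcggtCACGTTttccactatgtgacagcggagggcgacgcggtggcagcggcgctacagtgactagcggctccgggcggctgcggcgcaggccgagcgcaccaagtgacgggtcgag
Arntl promoter: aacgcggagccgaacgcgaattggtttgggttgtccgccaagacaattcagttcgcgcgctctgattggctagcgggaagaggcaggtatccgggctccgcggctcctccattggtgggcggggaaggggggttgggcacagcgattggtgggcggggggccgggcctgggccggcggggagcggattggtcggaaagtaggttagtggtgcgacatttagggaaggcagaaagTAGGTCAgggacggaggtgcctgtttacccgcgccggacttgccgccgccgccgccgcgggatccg
Both strands were searched for the E-box CACGTG, the variant CACGTT, the D-box TTATGTAA or TTACGTAA, the cAMP element TGACGTCA, the core TAGGTCA and the heat shock element, and no matches overlapped in these 2 promoters. Among all 33469 promoters of the table, CACGTT occurred in 4.83%, the D-box in 1.01% and TAGGTCA in 2.63%. The only other match among the 7 promoters was CACGTT in Cry2, from base -212 to -207 on the opposite strand. The windows of Clock, Npas2, Per1 and Per3 held none of these letters.

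None of the 8 genes passed the test, which was limma on log2(FPKM + 1) with Benjamini-Hochberg adjustment over 11742 genes at 0.05. The share of all genes that passed was 0.00852%, a single gene, the glucocorticoid-induced transcription factor gene Zbtb16. At an unadjusted p under 0.05 there were 4 of 8 members, where 16.0% of all genes lay under that limit. Of the 4, 3 were higher with exosomes (6.75% of all genes) and 1 was lower (9.24% of all genes). The groups did not overlap for 3 of the 8 genes, Per2 and Per1 (higher with exosomes) and Npas2 (lower), where this held for 21.1% of all genes. Applied to the reads that the FPKM steps imply, limma-voom passed 0 members too. Of the 8 log2 differences 6 were above 0, with a median of 0.34, against 39.3% of all genes and a median of -0.07. The 6 include Clock, at 0.002, and Per3, which was below 0 without saline 1. With 1 library left out the median of the members ran from 0.08 (without saline 1) to 0.54 (without exosome 1). With library weights it was 0.05.

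**Figure D1:**
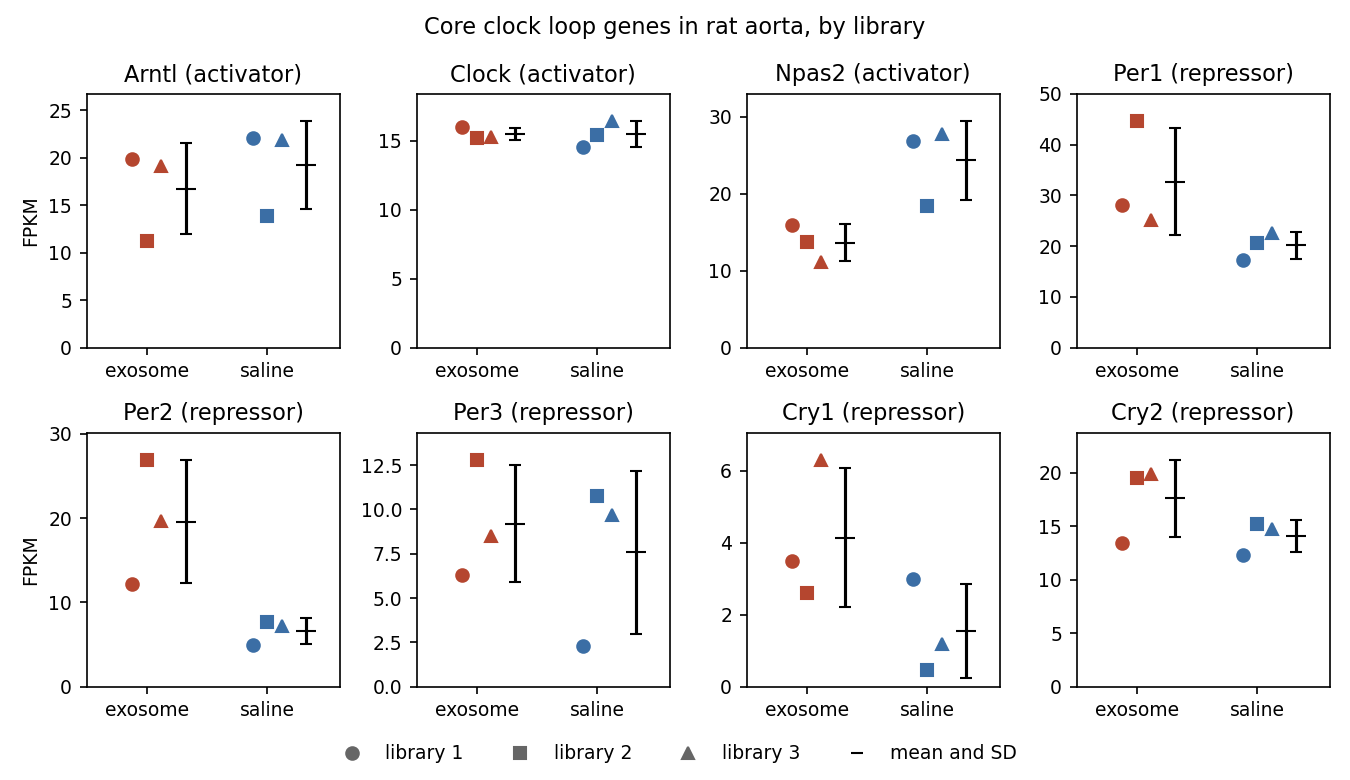
FPKM of the 8 clock loop genes on linear axes, with exosome libraries in red at the left of each panel and saline libraries in blue at the right; symbols give the library number and bars the mean and SD (n = 3). Exosome and saline points do not overlap for Npas2, Per1 and Per2, while Clock lies between 14.55 and 16.46 FPKM in all 6 libraries.

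Among the activators, Npas2 had the largest group difference. Npas2, which encodes the alternative partner of BMAL1, stood at 16.0, 13.8 and 11.2 FPKM in exosome 1, 2 and 3, against 26.8, 18.4 and 27.7 FPKM in saline 1, 2 and 3. Every exosome value lay below every saline value, and saline 2 was the lowest of its group. The means were 13.6 ± 2.40 FPKM with exosomes and 24.3 ± 5.16 FPKM with saline (SD, n = 3 each), a ratio of 0.561. On the log2 scale this was -0.78 ± 0.191 (SE) with a 95% interval of -1.23 to -0.34, and limma gave an adjusted p of 0.255.

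Clock, whose product is the usual partner of BMAL1, showed the smallest spread of the 8 genes. It stood at 16.0, 15.2 and 15.3 FPKM in the exosome libraries, against 14.55, 15.45 and 16.46 FPKM in the saline libraries. The groups overlapped and their means were nearly equal, at 15.5 ± 0.459 and 15.49 ± 0.955 FPKM (exosome and saline, SD, n = 3 each). The 95% interval of the log2 difference ran from -0.23 to 0.24 (adjusted p = 0.994).

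Arntl stood at 19.9, 11.2 and 19.1 FPKM with exosomes, against 22.05, 13.9 and 21.85 FPKM with saline. In each group library 2 was well below the others, and the groups overlapped. The log2 difference was -0.20, with a 95% interval of -0.80 to 0.39 and an adjusted p of 0.688. Without exosome 2 it was 0.04, so its sign rested on that library.

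Among the repressors, Per2 and Cry1 had the largest differences, and their order depended on the scale and the libraries. On log2(FPKM + 1) Per2 came first (1.39, against 1.07 for Cry1), while in limma-voom on the recovered reads Cry1 did (1.81, against 1.59 for Per2), as it also did with smaller pseudocounts, with library weights and without exosome 2 or saline 1. PER2 is a main partner of the CRY proteins in the repressor complex. Per2 stood at 12.2, 26.9 and 19.7 FPKM in exosome 1, 2 and 3, against 4.90, 7.68 and 7.22 FPKM in saline 1, 2 and 3. Even exosome 1, the lowest of its group, exceeded the highest saline library, and it was well below exosome 2. The means were 19.6 ± 7.33 FPKM with exosomes and 6.6 ± 1.49 FPKM with saline (SD, n = 3 each), a ratio of 2.97. In log2 terms the difference was 1.39 ± 0.280 (SE), 95% interval 0.74 to 2.05 (adjusted p = 0.237). With any 1 library removed it stayed between 1.14 and 1.68, and with library weights it was 0.81. The counts behind these values were 978 to 5211 reads per library, so counting error was small beside the spread between libraries. Exosome 2, the highest library for Per2, had the lowest summed level of heat shock genes.

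Per1, which also responds directly to cAMP and to glucocorticoids, stood at 28.1, 44.7 and 25.2 FPKM with exosomes, against 17.2, 20.6 and 22.5 FPKM with saline. The groups did not overlap, and exosome 2 stood well above the other libraries. Exosome 3 and saline 3 were close, at 25.2 and 22.5 FPKM. The log2 difference was 0.64 (95% interval 0.13 to 1.14, adjusted p = 0.283), and without exosome 2 it was 0.39.

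Per3, the Per gene that mouse clocks depend on least, stood at 6.29, 12.8 and 8.48 FPKM with exosomes, against 2.31, 10.75 and 9.675 FPKM with saline. Saline 1 was the lowest of the 6 libraries, and the other saline libraries lay within the exosome range. The log2 difference of 0.40 had a 95% interval of -0.73 to 1.53 (adjusted p = 0.679). Without saline 1 it was -0.19, so its sign rested on that library.

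Cry1, whose product is the stronger repressor of the CRY pair in mouse cells, was the lowest of the 8 genes. It stood at 3.49, 2.61 and 6.30 FPKM with exosomes, against 3.0, 0.455 and 1.19 FPKM with saline. The groups overlapped, since saline 1 lay above exosome 2. Its log2 difference was 1.07 (95% interval 0.14 to 2.01, adjusted p = 0.291). In limma-voom on the recovered reads it was 1.81 (adjusted p = 0.25), and the log2(FPKM + 1) scale understates differences of low genes. Saline 2 held 37 reads of Cry1, and its exact 95% Poisson interval of 0.320 to 0.627 FPKM did not reach the lower bound of any other library, of which the lowest was 0.980 FPKM in saline 3. These intervals cover counting error only.

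Cry2 stood at 13.5, 19.5 and 19.9 FPKM with exosomes, against 12.4, 15.2 and 14.7 FPKM with saline. Exosome 2 and 3 lay above all saline libraries and exosome 1 lay among them. This gave a log2 difference of 0.29 (95% interval -0.11 to 0.68, adjusted p = 0.407). Without exosome 1 it was 0.46 (adjusted p = 0.515).

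**Figure D2:**
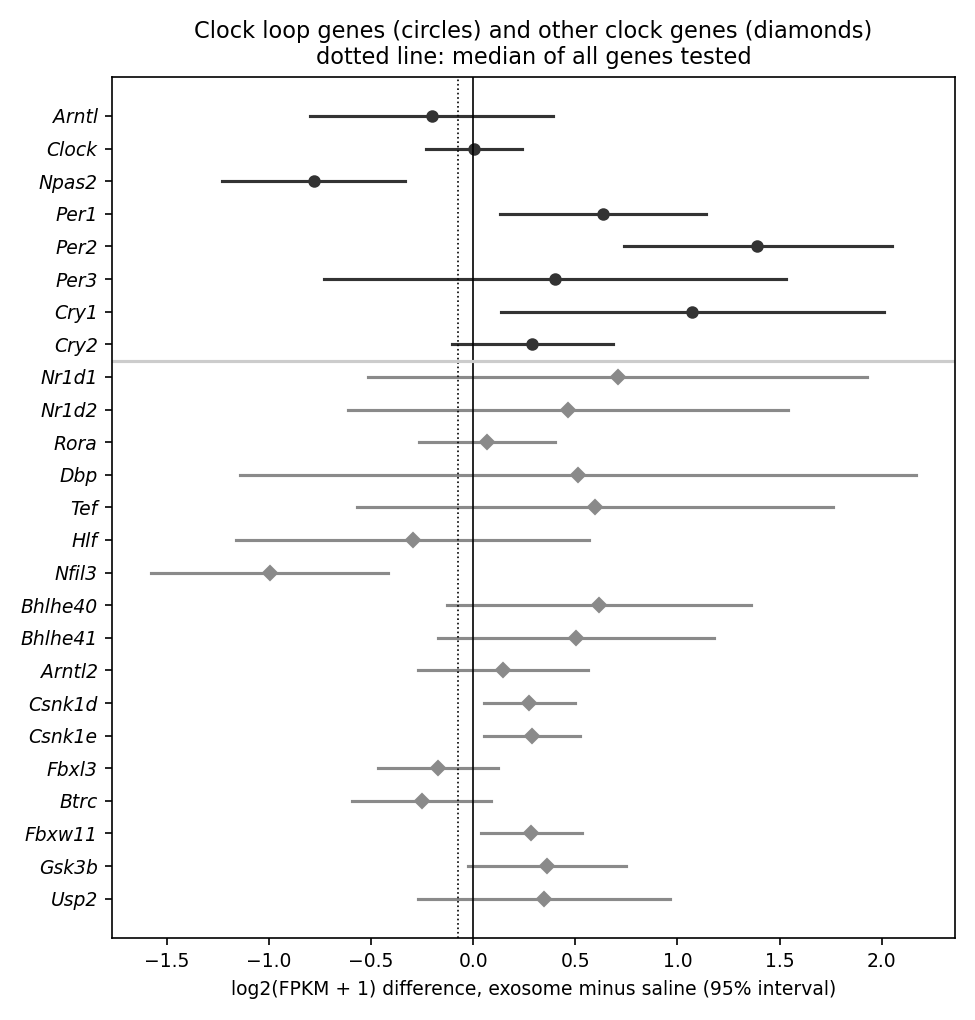
Log2(FPKM + 1) difference, exosome minus saline, with 95% intervals from limma, for the 8 clock loop genes (circles) and the 17 other clock genes tested (diamonds); the dotted line is the median of all genes, -0.07. Among the loop genes the interval lies above 0 for Per1, Per2 and Cry1 and below 0 for Npas2, but none of the genes shown passed the adjusted threshold.

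The order of the levels, which FPKM allows since it is scaled to gene length, differed between the groups. With exosomes the order of the means was Per1 (32.65 FPKM), Per2 (19.6), Cry2 (17.6), Arntl (16.7), Clock (15.5), Npas2 (13.6), Per3 (9.19) and Cry1 (4.14). With saline it was Npas2 (24.3 FPKM), Per1 (20.1), Arntl (19.3), Clock (15.49), Cry2 (14.1), Per3 (7.58), Per2 (6.6) and Cry1 (1.55). Per2 thus ranked 2 with exosomes and 7 with saline, while Npas2 ranked 6 with exosomes and 1 with saline. All neighbours in the exosome order had overlapping ranges. In the saline order, Cry2 with Per3 and Per2 with Cry1 did not overlap, and the other neighbours did.

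Ratios within a library do not depend on how the libraries were scaled, so relatives were compared in this way for 5 pairs. The ratio of Npas2 to Clock was 0.996, 0.906 and 0.731 in the exosome libraries, against 1.84, 1.19 and 1.68 in the saline libraries. By FPKM the Clock transcript was thus above that of Npas2 in all exosome libraries, though by little in exosome 1, and below it in all saline libraries. Which transcript comes out higher depends on the gene lengths behind the FPKM, and protein was not measured. The difference of the mean log2 ratio was -0.83 (two-sided exact permutation p = 0.10, adjusted p = 0.25 over 5 pairs), and 0.10 is the smallest p that 3 libraries against 3 can give.

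The ratio of Per2 to Per1 was 0.434, 0.601 and 0.782 with exosomes, against 0.285, 0.373 and 0.320 with saline, and the groups did not overlap. Its log2 difference was 0.86 (exact permutation p = 0.10, adjusted p = 0.25). The groups overlapped for the other pairs. The log2 difference was 1.41 for Cry1 to Cry2 (exact p = 0.20, adjusted p = 0.333), -1.02 for Per3 to Per2 (exact p = 0.30, adjusted p = 0.375) and -0.16 for Per3 to Per1 (exact p = 0.90, adjusted p = 0.90). For Cry1 to Cry2 it was 0.67 without saline 2 and 2.18 without saline 1. For Per3 to Per2 it was -1.53 without saline 1. Per3 to Per2 was 0.515, 0.476 and 0.431 with exosomes, against 0.471, 1.40 and 1.34 with saline, so saline 1 lay within the exosome range and the other saline libraries far above it.

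As a description across the arms of the loop, the ratio of Per2 to Npas2 was 0.765, 1.95 and 1.76 in the exosome libraries, against 0.183, 0.418 and 0.260 in the saline libraries. The ratio of Per2 to Arntl was 0.614, 2.39 and 1.03 with exosomes, against 0.222, 0.552 and 0.330 with saline. Neither ratio overlapped between the groups. For Per2 to Npas2 this had to follow, since every exosome library was higher for Per2 and lower for Npas2 than every saline library. It adds nothing to the values of these genes. No test was made of these pairs, which were picked from opposite arms with the values known.

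**Figure D3:**
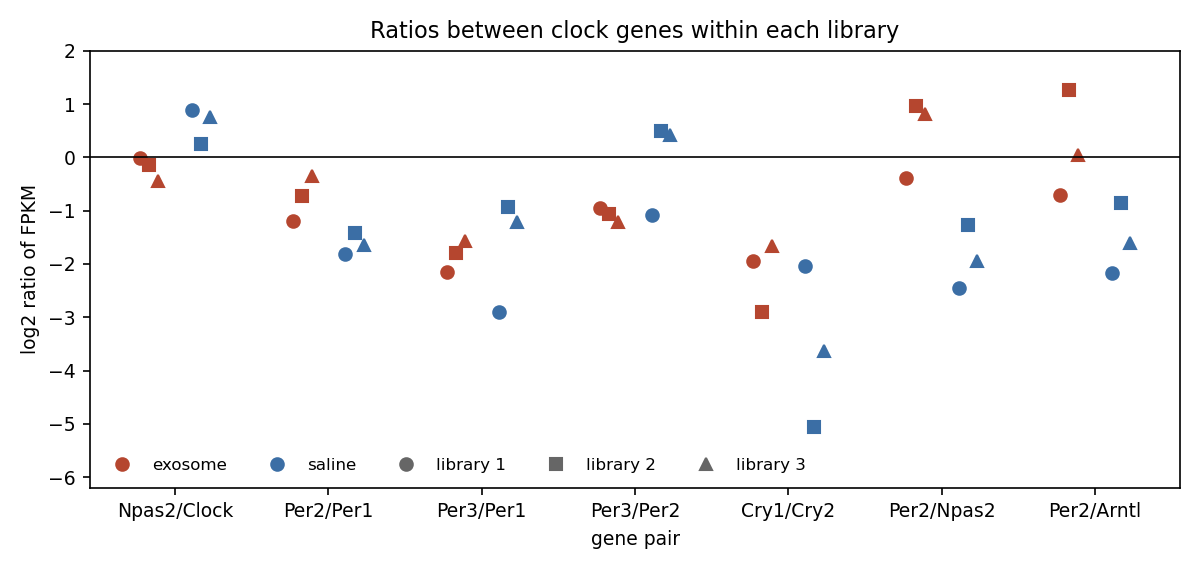
Log2 ratio of the FPKM of gene pairs within each library, exosome libraries in red at the left of each pair and saline libraries in blue at the right; 0 means equal FPKM. The groups do not overlap for Npas2/Clock, Per2/Per1, Per2/Npas2 and Per2/Arntl, while saline 1 lies within the exosome range for Per3/Per2. For Per2/Npas2 this follows from the values of each gene, which do not overlap in opposite directions.

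Beyond the 8 genes, 21 other genes of the clock were listed and 17 were tested. Of the 17, 13 were higher and 4 lower with exosomes, with a median log2 difference of 0.29, and none passed the test. Among all genes 39.3% were higher. How far the count rests on saline 1, the lowest library for many of these genes, was not tested. The groups did not overlap for 4 of them, 3 higher and 1 lower, where 9.40% of all genes were apart as higher and 11.7% as lower. The remaining genes of the list, Ciart and Fbxl21 among them, lay under the minimum of 1 FPKM and were not tested.

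Nfil3, which encodes a repressor acting at D-boxes, was the lower of these. It stood at 17.01, 12.6 and 14.9 FPKM with exosomes, against 19.97, 38.5 and 36.6 FPKM with saline (log2 difference -0.997, adjusted p = 0.255). The higher ones were genes of protein turnover with small differences. Csnk1d, encoding a kinase that phosphorylates PER proteins, stood at 50.3, 52.5 and 49.7 FPKM with exosomes, against 41.9, 39.4 and 44.4 FPKM with saline (log2 difference 0.28, adjusted p = 0.284). Its relative Csnk1e had a log2 difference of 0.29 (adjusted p = 0.285). Fbxw11, a subunit of a ubiquitin ligase that recognises phosphorylated PER, had one of 0.28 (adjusted p = 0.290).

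The groups overlapped for Nr1d1 and for Dbp. Nr1d1, encoding REV-ERB alpha, stood at 39.4, 36.9 and 91.2 FPKM with exosomes, against 14.02, 56.0 and 36.8 FPKM with saline (adjusted p = 0.50). Dbp, a D-box activator and a classic output of CLOCK and BMAL1, stood at 16.1, 32.8 and 34.5 FPKM with exosomes, against 4.61, 40.3 and 29.4 FPKM with saline (adjusted p = 0.718). Saline 1 was the lowest library for both. Among the loop genes it was the lowest for Clock, Per1, Per2, Per3 and Cry2 as well. Among the other clock genes tested it was also the lowest for Rora, Hlf, Bhlhe40, Bhlhe41, Gsk3b, Nr1d2 (7.503 FPKM, next lowest 18.8 in exosome 1) and Tef (6.62 FPKM, next lowest 14.9 in exosome 1). It was the highest of the 6 for Arntl and the highest of the saline libraries for Cry1.

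**Figure D4:**
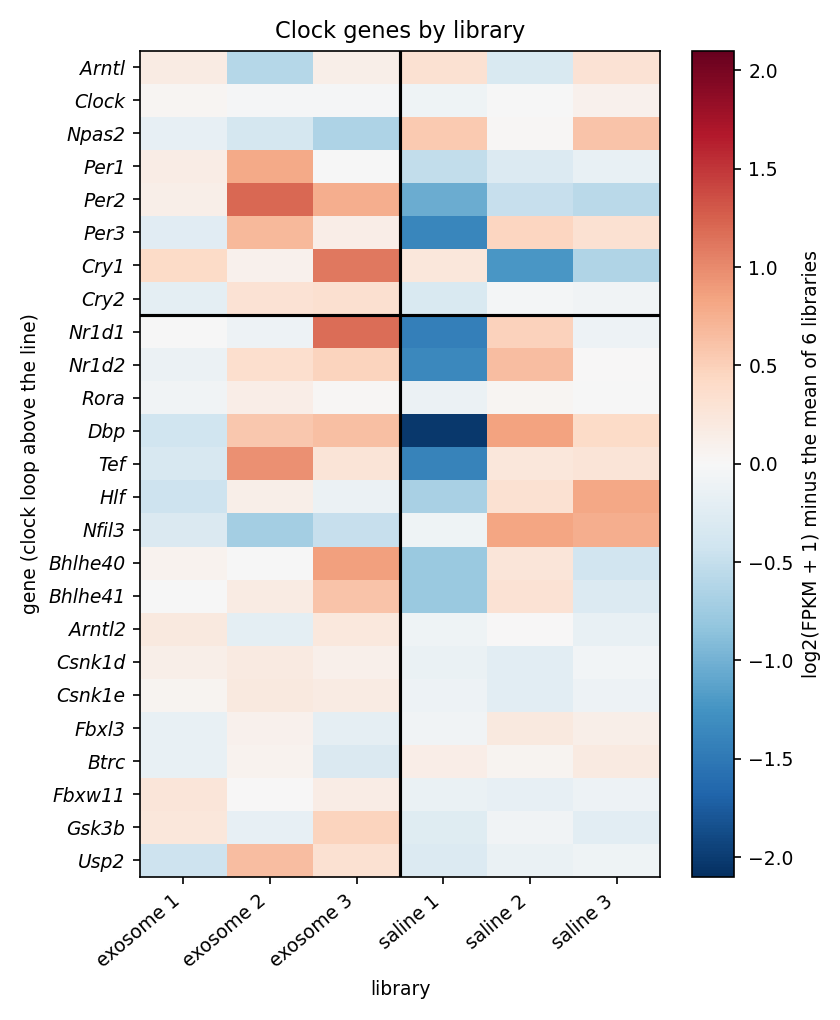
Log2(FPKM + 1) of each clock gene minus its mean over the 6 libraries, libraries in columns (exosome left, saline right) and genes in rows, the 8 loop genes above the line. Saline 1 is low for Per3, Nr1d1, Nr1d2, Dbp and Tef, whereas Per2 and Per1 are above their means in all exosome libraries but for Per1 in exosome 3, which lies at the mean.

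Other features of the libraries are given beside the clock genes. Of 12 glucocorticoid target genes listed, 10 were higher and 2 lower with exosomes, where 39.3% of all genes were higher. The groups did not overlap for 6 of them, all higher, where 9.40% of all genes were apart in that direction, and 1 passed the test, Zbtb16. Fkbp5, a glucocorticoid-induced chaperone partner, stood at 17.3, 30.5 and 22.0 FPKM with exosomes, against 3.69, 6.23 and 9.17 FPKM with saline (adjusted p = 0.219).

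Of 16 immediate early genes listed, 15 were tested, of which 12 were lower and 3 higher with exosomes, where 39.3% of all genes were higher. The groups did not overlap for 5 as lower and 1 as higher, where 11.7% and 9.40% of all genes were apart in these directions. The summed level of the list was 740.9, 794.8 and 1163 FPKM in the exosome libraries, against 1305, 2177 and 2702 FPKM in the saline libraries. Endothelial markers, 6 listed, were all higher, and their summed level was 115.3, 162.6 and 118.8 FPKM with exosomes, against 82.5, 104.6 and 71.8 FPKM with saline. The groups were apart for 4 of these genes and overlapped for Cdh5 and Tie1. Macrophage markers, 6 listed, were all higher as well, with sums of 115.2, 102.8 and 124.2 FPKM against 73.0, 84.0 and 79.05 FPKM (exosome and saline). Here too the groups were apart for 4 genes, and they overlapped for C1qa and Cd68. None of these marker genes passed the test. Adipocyte markers, 7 listed, all had log2 differences below 0, from -0.0375 for Fabp4 to -1.38 for Ucp1, and the groups overlapped for each. They summed to 388.1, 673.6 and 445.4 FPKM with exosomes and to 346.4, 1149 and 403.2 FPKM with saline. Only saline 2 lay above the exosome range. Library 2, the lowest for Arntl, was thus the highest in each group. Lymphocyte markers were near 0, with sums of 0.388 to 1.08 FPKM with exosomes and 0.488 to 1.19 FPKM with saline. The summed levels of the other marker lists overlapped between the groups. They were 1536 to 1937 FPKM with exosomes and 1463 to 2388 FPKM with saline for adventitial fibroblasts, and 175.0 to 531.5 FPKM with exosomes and 291.9 to 800.3 FPKM with saline for red cells. For skeletal and cardiac muscle they were 49.5 to 94.35 FPKM with exosomes and 49.1 to 96.3 FPKM with saline, with Myh4 at 0 in all libraries, and for Schwann cells 6.87 to 15.6 FPKM with exosomes and 6.97 to 16.7 FPKM with saline. The part of these features in the clock gene values was not tested. In bulk tissue, fewer cells of a type and less RNA per cell cannot be told apart.

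For each member the gene most like it over the 6 libraries was found among 11000 tested genes with assigned symbols, by Pearson's r of log2(FPKM + 1). The search was wide and the libraries few, so high values of r are common, and r describes these libraries only. The gene most like Per2 was Spen, a transcriptional corepressor gene (r = 0.99), at 8.66, 9.99 and 9.49 FPKM with exosomes and 7.18, 7.67 and 8.005 FPKM with saline. The closest to Npas2 was Tmem258 (r = 0.993), the closest to Per1 was Siah1 (r = 0.994), a ubiquitin ligase gene, and the closest to Cry1 was Tyro3 (r = 0.993), a receptor tyrosine kinase gene. Those closest to Per3, Cry2, Arntl and Clock were Ddx6 (r = 0.996), Rrp8 (r = 0.991), Snrpd3 (r = 0.984) and Ccdc112 (r = 0.958). Clock itself hardly varied.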

How the data were processed

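The 6 libraries of rat aorta, 3 exosome and 3 saline, were grouped by the treatment in the labels. The authors deposited FPKM per gene symbol, made from SMARTER mRNA-seq libraries per the labels' protocols. The submitters' processing notes name DESeq2 1.28.1 without its role. No source used here gives the aligner, counter, strand setting, build or annotation. Whether each library was a separate animal is not stated, and p-values therefore reflect only the spread between these samples, which may be technical. Overlapping and antisense genes could not be separated.

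Whole reads were recovered from the FPKM steps for 100.0% of 18430 genes above 0, within 0.02 reads. Log2(FPKM + 1) values were fitted with limma 3.58.1 (R 4.3.3), two-sided and moderated with an intensity trend, for 11742 genes averaging 1 FPKM or more. Log2 differences understate changes of low genes. Ratios were tested by exact permutation (scipy 1.17.1). The fit was tested on simulated libraries with the mean levels and library sizes of this comparison and 11742 genes. There 77% of genes changed 2-fold and 100% of genes changed 4-fold were recovered, with 12 unchanged genes passing. The simulation gave every gene the same fixed spread beyond counting error. These shares therefore do not tell how many such changes the test would find in the real libraries. Alternatives were pseudocounts of 0.1 and 0.01, no filter or a minimum of 5 FPKM, 3 other scalings, 2 other moderations, library weights, a replicate block, limma-voom on recovered reads with TMM factors, and each library left out. Genes named are the 8 members, a list of other clock genes, state and marker lists, and the gene most like each member. Members and lists were chosen with earlier results of these data known.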

Additional observations from a re-analysis of the deposited data

How the results depend on the processing

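No member passed the test in the main fit or under any alternative but library weights, where 4 did, with adjusted p of 0.0307 for Per2, 0.0231 for Cry1, 0.0393 for Per1 (all higher) and 0.0360 for Npas2 (lower). The estimate of these weights stopped before it converged, at 9.2 for exosome 1 and 0.305 to 1.14 for the others, and 3268 genes passed in all. With a minimum of 5 FPKM, Cry1 was not tested. The number of genes passing was 2 with quantile normalization and 2 with limma-voom, against 1, and 0 to 9 when a library was left out. Without exosome 1 or saline 3 it was 0, without saline 1 it was 9, without exosome 2 it was 4, and without exosome 3 it was 2.

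Per2, Per1, Cry1 and Npas2 kept their sign under every alternative that tested them. With library weights the log2 difference of Per2 was 0.81, against 1.39, that of Arntl was 0.0822, that of Per3 -0.247 and that of Cry2 -0.0469. Leaving out 1 library gave -0.412 to 0.0439 for Arntl (above 0 without exosome 2), -0.186 to 0.727 for Per3 (below 0 without saline 1) and -0.03925 to 0.0443 for Clock (below 0 without exosome 1 or saline 1). The log2 difference of the ratio of Per3 to Per1 ran from -0.77 to 0.22 when a library was left out (above 0 without saline 2 or 3). The other 4 pairs kept their sign, with 0.67 to 2.18 for Cry1 to Cry2. The cause was not tested. With 1 library left out, 3 or 4 members had groups that did not overlap. The share of all genes was not found for these smaller groups, which separate more easily. These counts therefore cannot be set beside the 21.1% of all genes in the full comparison, and they do not show stability.

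The replicate block, with the library number as a term, passed 1 gene and no member (Per2 adjusted p = 0.122). The numbers were not taken as pairs, since no source used here states that they pair animals. Deviations of same-numbered libraries correlated by 0.0682, 0.0958 and -0.165 over 11742 genes, which cannot exclude a pairing that acts on few genes. With the block the SE was 0.154 for Per2, against 0.280 in the main fit, and 0.121 for Arntl, against 0.254. For Clock it was 0.127, against 0.101. The 3 numbers stood in the same order in both groups for 3 of 8 members (Arntl, Per2, Per3) and for 14.3% of all genes tested. Depth limits only Cry1 in saline 2, with 37 reads.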
